A study of Mus musculus with 2 samples.

Results

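Chil4, Chil3 and Alox15 were followed in single cells of the mouse tongue epithelium. They are 3 of the 32285 genes in the count tables and were taken by their symbols, each of which named 1 row. They were chosen because the ZT0 and ZT12 libraries had been seen to differ in these genes, so the values that set the libraries apart describe the choice and carry no test. Both libraries came from male B57BL/6 mice of 8 to 12 weeks, with no other treatment or genotype in the labels. ZT0 and ZT12 are Zeitgeber times, by convention lights on and lights off. The epithelium was digested with TrypLE, a trypsin-like enzyme, living cells were sorted by exclusion of the dye 7-AAD, and 10x Genomics 3' libraries were made. Each time has 1 library. How many mice gave the cells is not stated in the sources used here, so cells rich in these genes could all come from 1 mouse, and no comparison of ZT0 with ZT12 has a replicate check.

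Chil3 (Ym1) and Chil4 (Ym2) encode secreted chitinase-like lectins of rodents, which have the fold of a chitinase but do not cut chitin. Alox15 encodes 12/15-lipoxygenase, which adds oxygen to arachidonic acid and to fatty acids held in membrane lipids. In mouse airway epithelium and macrophages all of them are textbook targets of interleukin-4 and interleukin-13, which signal through a receptor containing Il4ra and Il13ra1 to the transcription factor STAT6. Small proline-rich proteins such as Sprr2a3 are cross-linked into the envelope of differentiated keratinocytes, and the ubiquitin-like protein Isg15 is a classical product of interferon signalling.

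Chil4 (ENSMUSG00000063779) lies on the minus strand of chromosome 3 at chr3:106201490-106219507, Chil3 (ENSMUSG00000040809) beside it at chr3:106147554-106167564, and Alox15 (ENSMUSG00000018924) on the minus strand of chromosome 11 at chr11:70344152-70352031 (mm10, GENCODE M21). The 250 bases upstream of the RefSeq start are shown for 4 of the genes, Chil4, Chil3, Sprr2a3 and Isg15. No such stretch of Alox15 was available in the sources used here, so its upstream bases are not shown. They come from RefSeq on GRCm38.p6, at chr3:106219480-106219729 (minus strand) for Chil4, chr3:106167565-106167814 (minus) for Chil3, chr3:92285054-92285303 (plus) for Sprr2a3 and chr4:156200819-156201068 (minus) for Isg15. Capitals mark 4 motifs, searched on both strands. The STAT6 motif is TTC and GAA with 4 bases between them, and the motif of other STAT proteins is TTCNNNGAA. The core of the interferon-stimulated response element is a repeat of GAAA with 2 bases between the copies, and the TATA box is TATAAA.
Chil4: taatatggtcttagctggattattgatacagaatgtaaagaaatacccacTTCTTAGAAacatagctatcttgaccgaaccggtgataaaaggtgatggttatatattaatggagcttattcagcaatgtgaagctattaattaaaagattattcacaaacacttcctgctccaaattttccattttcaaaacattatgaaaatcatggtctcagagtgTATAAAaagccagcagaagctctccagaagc
Chil3: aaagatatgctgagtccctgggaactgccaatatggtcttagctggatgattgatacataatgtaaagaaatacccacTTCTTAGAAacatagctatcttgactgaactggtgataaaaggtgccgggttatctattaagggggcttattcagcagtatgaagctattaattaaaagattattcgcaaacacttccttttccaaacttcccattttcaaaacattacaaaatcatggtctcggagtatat
Sprr2a3: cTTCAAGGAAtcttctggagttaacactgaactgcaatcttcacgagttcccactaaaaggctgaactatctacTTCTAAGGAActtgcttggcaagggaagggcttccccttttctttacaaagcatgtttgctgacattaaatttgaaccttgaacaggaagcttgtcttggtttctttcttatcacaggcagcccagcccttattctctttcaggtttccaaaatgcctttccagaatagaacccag
Isg15: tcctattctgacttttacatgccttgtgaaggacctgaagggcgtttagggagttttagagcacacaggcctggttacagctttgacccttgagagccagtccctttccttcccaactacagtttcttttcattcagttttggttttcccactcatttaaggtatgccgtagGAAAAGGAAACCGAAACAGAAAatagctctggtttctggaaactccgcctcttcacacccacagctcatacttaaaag
The Chil4 and Chil3 stretches matched at 201 of 223 aligned positions (90.1%), and both held TTCTTAGAA, 192 bases before the start in Chil4 and 164 in Chil3. Chil4 also held TATAAA at 26 bases. These distances are from the RefSeq starts. The GENCODE start of Chil4 (106219507) lies inside its stretch, whereas that of Chil3 (106167564) lies directly beside its stretch. The distances therefore do not show a difference between the genes. The Chil3 stretch ends within the bases that match TATAAA of Chil4, so TATAAA could not be seen there. Sprr2a3 held the STAT6 motif as TTCTAAGGAA at 167 bases and the motif of other STAT proteins as TTCAAGGAA at 241 bases. Isg15 held 3 overlapping matches of the interferon element between 57 and 69 bases. Among 32851 promoters of the same length, 5.85% held the STAT6 motif, 7.02% TTCNNNGAA, 2.98% the interferon element and 12.4% TATAAA. A match is a description of the letters, not a shown binding site.

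After removal of 129 barcodes at ZT0 and 191 at ZT12 for few genes or many mitochondrial UMIs, and of the few called doublets, 1593 ZT0 cells (49256011 UMIs) and 2620 ZT12 cells (67059151 UMIs) remained, with medians of 28401 and 23088 UMIs per cell. A UMI, or unique molecular identifier, stands for 1 captured transcript. The libraries shared 2 cell barcodes, and of those 4 cells 1 held a UMI of Chil4, Chil3 or Alox15. The 133 removed ZT0 barcodes held 27 Chil4 and 14 Alox15 UMIs. All intervals below are exact 95% intervals that cover counting error only, Poisson for UMIs, Clopper-Pearson for shares and conditional binomial for ratios.

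Chil4 was counted 17721 times at ZT0 (17461 to 17984) and 17 times at ZT12 (9.90 to 27.2). This is 359.8 CPM (the usual scaling of UMIs to a fixed library total) against 0.254 CPM, a ratio of 1419 (886 to 2437), which ranked 1 among 14567 genes with 20 or more UMIs in both libraries together. Of those genes 7.59% were at least 2-fold and 0.995% at least 10-fold higher at ZT0. Chil4, Chil3 and Alox15 are all in the 10-fold class, which follows from how they were chosen. A Chil4 UMI was present in 183 ZT0 cells (11.5%, 9.96 to 13.2) and in 6 ZT12 cells (0.229%, 0.0841 to 0.498). With every cell thinned to the same depth, which left out 132 ZT0 and 261 ZT12 cells below it, the shares were 7.12% and 0.170%, so the gap remained at equal depth. The 6 ZT12 cells held 8, 3, 3, 1, 1 and 1 Chil4 UMIs, and 5 of them had no Alox15.

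Alox15 was counted 1715 times at ZT0 (1635 to 1798) and 91 times at ZT12 (73.3 to 112), or 34.8 against 1.36 CPM, a ratio of 25.7 (20.8 to 32.0). At ZT0 it was found in 132 cells (8.29%, 6.98 to 9.75), with up to 155 UMIs in a cell. At ZT12 the gene was in 35 cells (1.34%, 0.932 to 1.85), with up to 8. The ZT12 cells with Alox15 thus held it at low counts, and none reached 10 UMIs where 52 ZT0 cells did. At equal depth the shares were 6.23% and 0.848%. Of the genes named beside the members, Sprr2a3 had 1773 UMIs at ZT0 and 157 at ZT12, a ratio of 15.4 (13.1 to 18.2), and Isg15 had 4076 and 293, a ratio of 18.9 (16.8 to 21.4).

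Chil3 was rare, with 62 UMIs in 5 ZT0 cells (0.314%, 0.102 to 0.731) and none in the 2620 ZT12 cells. By a floor of 3 counts this allows up to 0.115% of cells with a UMI, and the exact interval reaches 0.141%. Neither limits the share of cells that express the gene below detection. Against a floor of 3 UMIs over the ZT12 library, Chil3 was at least 28.1-fold higher at ZT0. Of the 62 UMIs, 53 came from the cell that also held the most Chil4, and without that cell the bound was 4.09-fold. In that cell there was 0.954 Chil3 UMI per 100 Chil4 UMIs (0.714 to 1.25). The other 45 Chil4-rich cells held 3 Chil3 UMIs beside 11969 Chil4 UMIs, or 0.0251 per 100 (0.00517 to 0.0732), so the proportion differed between cells beyond counting error. The main transcripts of the genes (Chil4-201 and Chil3-201) were identical at 1452 of 1540 aligned positions (94.3%), and 37 of 411 stretches of 90 bases in the last 500 bases of Chil4-201 occurred whole in Chil3-201. Counts of Chil3 beside very high Chil4 are therefore uncertain, since the treatment of reads that match both genes is not stated in the sources used here.

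Another 6 Chil3 UMIs lay in a ZT0 barcode of 2564 UMIs with no Chil4 and no Alox15. It held 288 UMIs of S100a9, 162 of S100a8, 51 of Ngp, 48 of Camp, 28 of Retnlg, 27 of Ltf, 11 of Mmp8 and 3 of Ly6g, all of them genes of the neutrophil list. The 4 other cells with Chil3 had no UMI of any of the 12 genes in the neutrophil list, and each of them had Chil4, Alox15, Sprr2a3 and Isg15 together with 353 to 2789 UMIs of Krt13, a keratin of mucosal keratinocytes. Chil3 therefore appeared in 2 kinds of barcode, 1 with neutrophil genes and 4 with keratinocyte genes.

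Chil4 was spread over ZT0 cells in a very uneven way. Of the 183 positive cells, 114 had 1 UMI and 23 had 2 to 9. Another 23 had 10 to 99 UMIs, 19 had 100 to 833, and the 4 cells above that held 9662 UMIs, 54.5% of the total. The 46 cells with 10 or more UMIs, called Chil4-high below, held 17526 UMIs (98.9%), with a lowest of 11, a median of 108 and a highest of 5557. Near this limit there were 3 cells with 11 or 12 UMIs and 3 with 7 or 9. The richest cell alone gave 31.4% of all Chil4 UMIs, and Chil4 made up 13.2% of that cell's 42208 UMIs. The 10 richest cells gave 75.9%. Without these 10 cells the ratio of ZT0 to ZT12 was 344.

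The richest cells carried the other genes as well. The cell with 5557 Chil4 UMIs held 140 of Alox15, 406 of Sprr2a3 and 12 of Isg15. The next held 1762 of Chil4, 41 of Alox15, 24 of Sprr2a3 and 3 of Isg15. The cell at rank 3 held 1327 of Chil4, 72 of Alox15, 33 of Sprr2a3 and 10 of Isg15. All of the 13 cells richest in Chil4 had 10 or more Alox15 UMIs, and 11 of these 13 had 10 or more of Sprr2a3. The limit of 13 follows the data, since the cell at rank 14 held 364 of Chil4, 2 of Sprr2a3 and no Alox15 or Isg15. The cell with 1327 UMIs had a doublet score of 0.231, at the 99.6 percentile of ZT0 cells, and was not called a doublet. Whether it holds the RNA of more than 1 cell was not tested. Leaving out the 5% of cells with the highest scores moved the share of the 10 richest cells to 78.6%. Of the 46 Chil4-high cells, 2 were among those 5%.

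**Figure D1:**
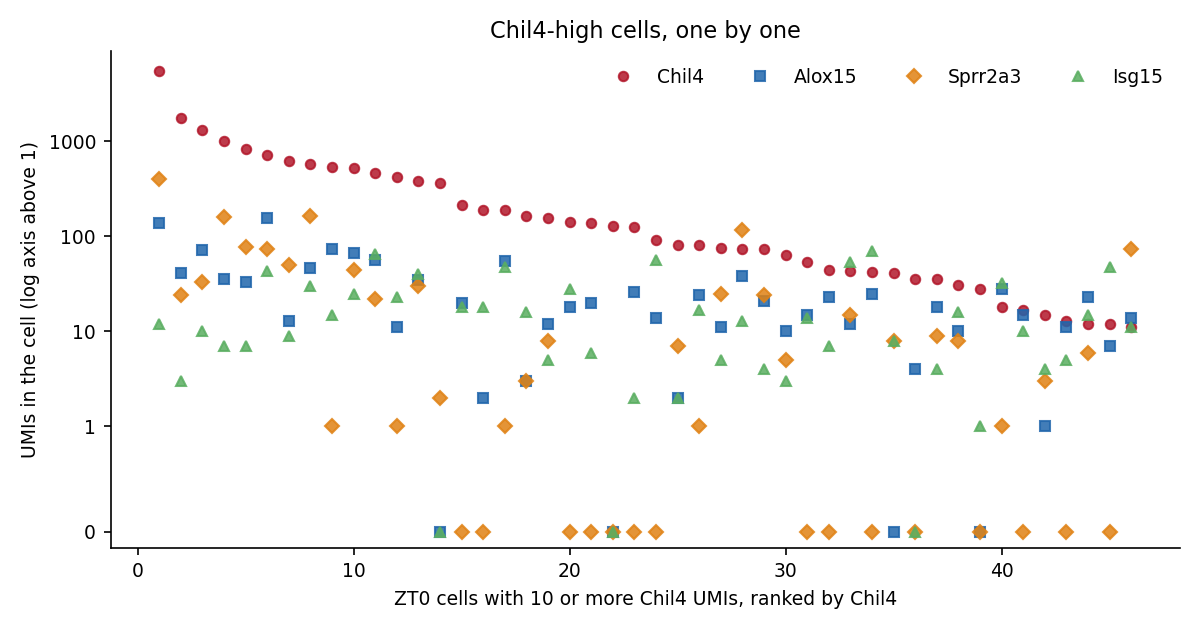
UMIs of Chil4, Alox15, Sprr2a3 and Isg15 (vertical axis, logarithmic above 1) in each of the 46 ZT0 cells with 10 or more Chil4 UMIs, ranked by Chil4 from left to right. Chil4 runs from 5557 down to 11, Alox15 is above 0 in 42 cells, and Sprr2a3 is at 0 in 15.

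Cells of both libraries were clustered on genes that left out Chil4, Chil3, Alox15, Sprr2a3 and the interferon lists. Of 20 clusters, 2 held most of the Chil4-high cells. Cluster 4, led by Sprr2a3, the lung and mucosal cytochrome gene Cyp2f2, Alox15 and the keratin gene Krt7, held 20 of the 46. Cluster 1, led by the cornification genes Crct1, Serpinb12, Sprr3, Lor and Cnfn, held 18. The remaining 8 lay in clusters 10 (3 cells, led by mitotic genes such as Ube2c and Top2a), 12 (2 cells), 0, 2 and 17 (1 each). Cluster 17 held 5 ZT0 and 15 ZT12 cells of low depth (medians 4635 and 5326 UMIs), and all of its 624 Chil4 UMIs came from 1 ZT0 cell. Clusters 1 and 4 were present at both times. They held 221 ZT0 and 517 ZT12 cells, and among the ZT12 cells Chil4 was seen in 4 (0.774%) and Alox15 in 17 (3.29%).

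Within clusters 1 and 4 at ZT0, Chil4 was present in 63 of 221 cells (28.5%) and at 10 or more UMIs in 38 (17.2%), so most cells of the same clusters and time had none. Alox15 was present in 90 of the 221 (40.7%). These cells held 76.2% of all Chil4 UMIs and 84.5% of all Alox15 UMIs of the ZT0 library. Among the other 1372 ZT0 cells, 120 had Chil4 (8.75%), but only 8 of them at 10 or more UMIs.

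Chil4 was also found at low counts in basal and immune clusters, where it is not a known marker. In clusters 5 and 7, which had high levels of the basal keratin genes Krt5 (5210 CPM) and Krt14 (12292 CPM), 9 of 205 ZT0 cells had Chil4 (4.39%, 2.03 to 8.17), never more than 2 UMIs, and none had Alox15. Clusters 8 and 13, also high in both keratins, had larger shares, with Chil4 in 19 of 217 ZT0 cells (8.76%, 5.35 to 13.3) and 6 of 65 (9.23%, 3.46 to 19.02), and none of these cells reached 10 UMIs. In the immune clusters 18 and 19, 1 of 21 cells had 1 Chil4 UMI (4.76%, 0.120 to 23.8) and none had Alox15. The median depth was 23627 UMIs in clusters 5 and 7, 21386 in cluster 8, 25799 in cluster 13, 15078 in the immune clusters and 42463 in the Chil4-high cells. Cluster 6, led by the keratin gene Krt76, had a higher share at a median depth of 41583 UMIs. There 12 of 107 ZT0 cells had Chil4 (11.2%, 5.93 to 18.8), with 12 UMIs in all. In cluster 10, 30 of 192 ZT0 cells had Chil4, but only 3 of them at 10 or more UMIs. A share of cells with a Chil4 UMI at or below these levels is not read as expression here. This includes the 11.5% of all ZT0 cells, which lies within the interval of cluster 6. The source of the low counts was not tested.

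**Figure D2:**
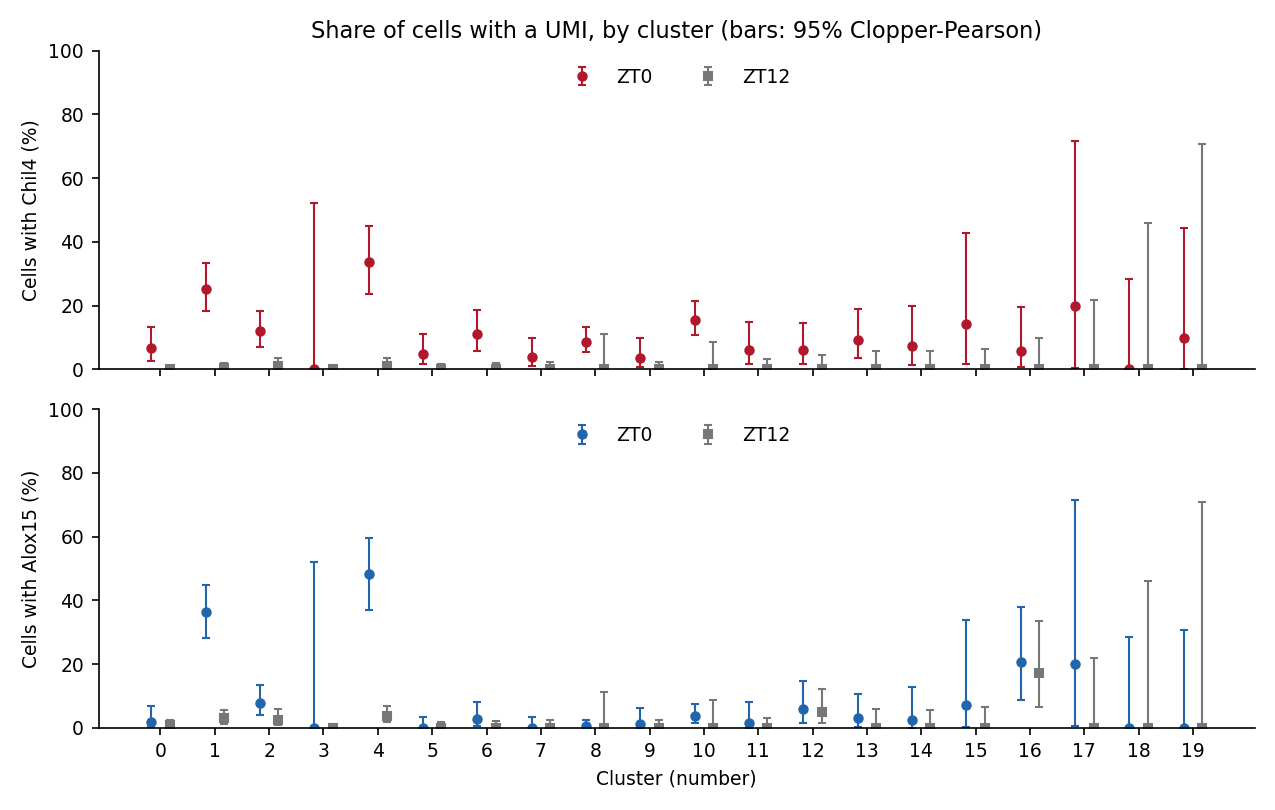
Share of cells with at least 1 UMI of Chil4 (top) and Alox15 (bottom), in percent, for each of the 20 clusters at ZT0 (coloured circles) and ZT12 (grey squares), with 95% Clopper-Pearson bars. At ZT0 clusters 1 and 4 reach 25.4% and 33.7% for Chil4 and 36.2% and 48.2% for Alox15, and clusters of few cells have wide bars.

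Alox15 was also found outside clusters 1 and 4, in cluster 16, led by Ltf, Krt8, Krt18 and Krt19, genes of simple or glandular epithelium. There Alox15 was in 7 of 34 cells at ZT0 (20.6%, 8.70 to 37.9), at 20.9 CPM. At ZT12 it was in 6 of 35 (17.1%, 6.56 to 33.6), at 18.6 CPM. Of the 18 Alox15 UMIs at ZT0, 11 lay in 1 cell, so the CPM values rest on few cells. The intervals of the libraries overlap widely in this cluster, unlike in clusters 1 and 4. Chil4 had 2 UMIs in those ZT0 cells and none in the ZT12 cells.

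Chil4 and Alox15 were found in the same cells. Of the 46 Chil4-high cells, 42 had Alox15 (91.3%, 79.2 to 97.6) and 36 had 10 or more UMIs of it, with a median of 18 and a highest of 155. Of the 1410 ZT0 cells with no Chil4 UMI, 67 had Alox15 (4.75%, 3.70 to 6.00). These sets had median depths of 42463 and 27399 UMIs, and at equal depth the shares were 88.6% and 3.03%. The 137 cells with 1 to 9 Chil4 UMIs stood between, with Alox15 in 23 (16.8%, 10.95 to 24.1). Among the cells of clusters 1 and 4 without Chil4 the share was 39 of 158 (24.7%, 18.2 to 32.2), at a median depth of 41132 UMIs. The 4 Chil4-high cells without Alox15 held 364, 130, 41 and 28 Chil4 UMIs and lay in clusters 1, 10, 4 and 0.

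**Figure D3:**
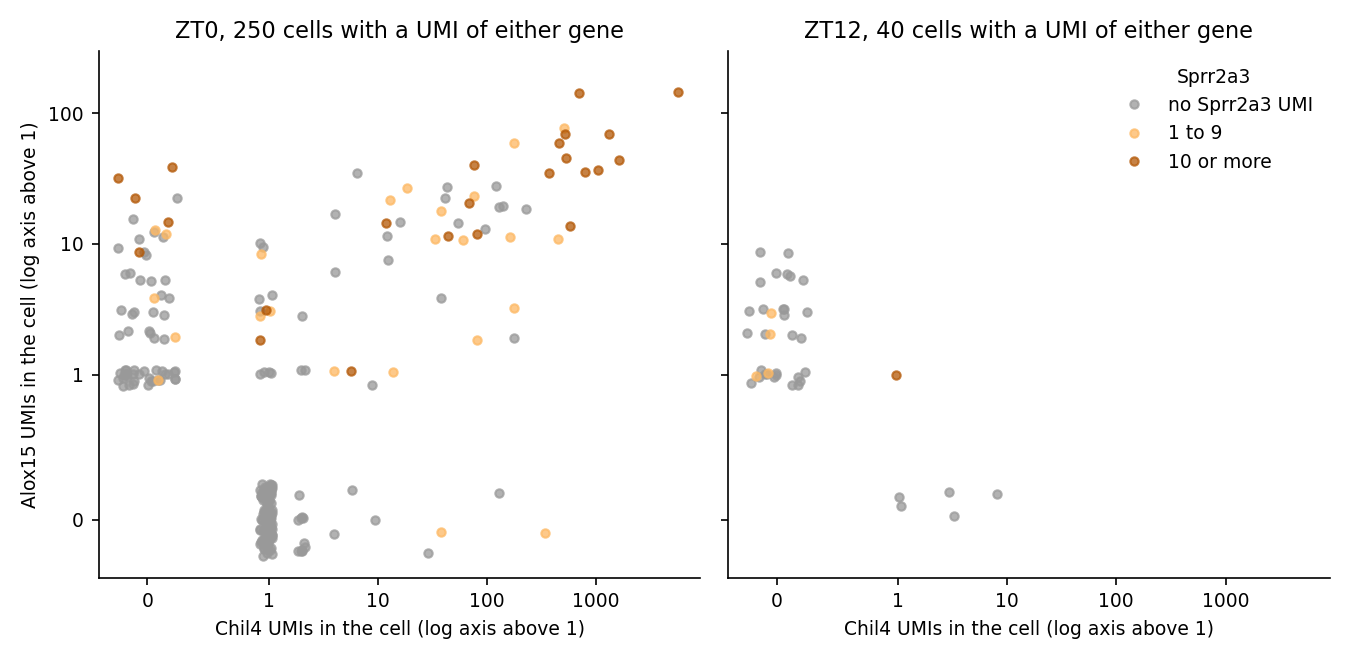
Chil4 UMIs (horizontal) against Alox15 UMIs (vertical) in each cell with a UMI of either gene, at ZT0 (left, 250 cells) and ZT12 (right, 40 cells), on axes that are logarithmic above 1 and with small random shifts to separate points. Colour gives the Sprr2a3 UMIs of the cell. Of the 36 ZT0 cells with 10 or more UMIs of both genes 10 have no Sprr2a3, and the ZT12 panel has no cell above 8 UMIs of either gene.

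Sprr2a3 followed with less reach. It was present in 31 of the 46 Chil4-high cells (67.4%, 52.0 to 80.5) and at 10 or more UMIs in 16, against 48 of the 1410 cells with no Chil4 (3.40%, 2.52 to 4.49) and 20 of the 158 in clusters 1 and 4 (12.7%, 7.91 to 18.9). In 10 Chil4-high cells there were 10 or more Alox15 UMIs and no Sprr2a3. Counts of Sprr2a3 are uncertain to the extent that reads are shared with its copies Sprr2a1 and Sprr2a2, whose transcripts were not compared. The upstream stretches of Sprr2a1 and Sprr2a2 were identical at 250 of 250 positions. That of Sprr2a3 matched Sprr2a1 at 222 of 222 aligned positions. Upstream bases do not bear on whether reads of the transcripts are shared.

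Isg15 was more widespread. It was present in 43 of the 46 Chil4-high cells (93.5%, 82.1 to 98.6), in 478 of the 1410 without Chil4 (33.9%, 31.4 to 36.4) and in 110 of the 158 of clusters 1 and 4 (69.6%, 61.8 to 76.7). Read the other way, 26 of 107 cells with 10 or more Isg15 UMIs were Chil4-high (24.3%, 16.5 to 33.5), against 16 of 25 cells with 10 or more Sprr2a3 (64.0%) and 36 of 52 with 10 or more Alox15 (69.2%). All 3 of Alox15, Sprr2a3 and Isg15 were present in 29 of the 46 Chil4-high cells.

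**Figure D4:**
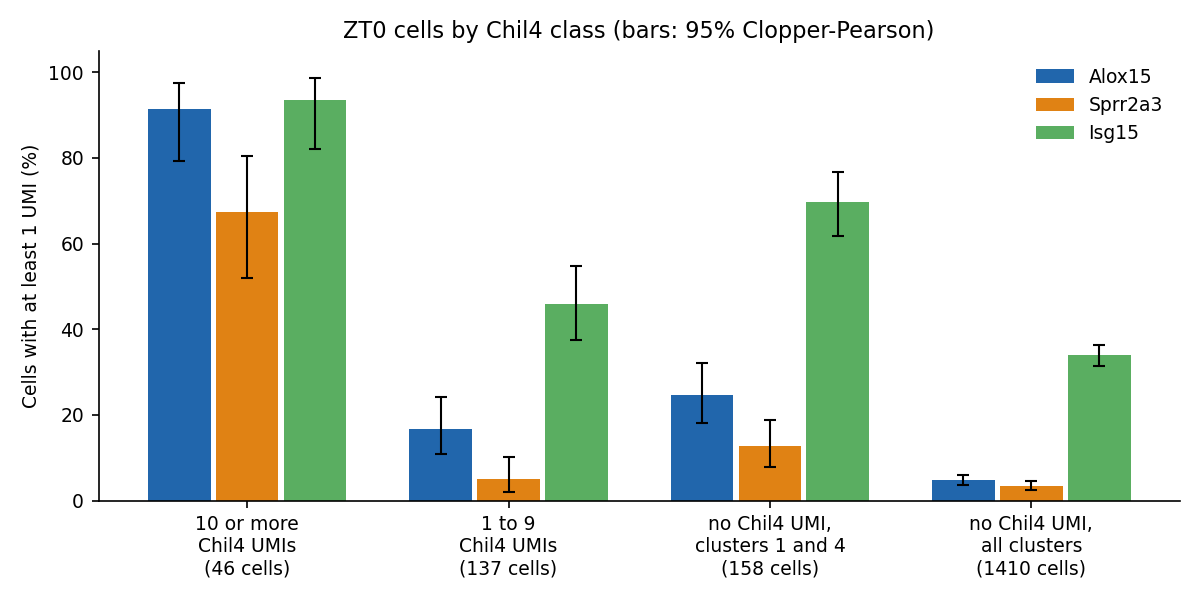
Share of ZT0 cells with at least 1 UMI of Alox15, Sprr2a3 and Isg15, in percent, by the Chil4 UMIs of the cell, with 95% Clopper-Pearson bars. Alox15 stands at 91.3% in cells with 10 or more Chil4 UMIs, 16.8% in cells with 1 to 9, 24.7% in the cells of clusters 1 and 4 without Chil4 and 4.75% in all cells without Chil4.

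Alox15 also occurred at high counts without Chil4. Of the 52 ZT0 cells with 10 or more Alox15 UMIs, which held 88.8% of the gene's ZT0 UMIs, 40 had Chil4 and 12 did not. The 12 lay in clusters 1 (5 cells), 4 (5), 2 (1) and 16 (1), held up to 36 Alox15 UMIs, and had a median depth of 55871 UMIs, above the 42463 of the Chil4-high cells. All 12 had Isg15, 6 had Sprr2a3 and 7 had Alox12e, the gene of an epidermal-type 12-lipoxygenase.

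Over the 1593 ZT0 cells, Pearson's r between log-scaled Chil4 and Alox15 was 0.79, and r was 0.70 between Chil4 and Sprr2a3 and 0.32 between Chil4 and Isg15. Cells share 1 library and most are at 0 for the members, so these values are descriptions. After Alox15 and Sprr2a3, the genes most like Chil4 among those found in at least 20 cells were Sprr2a1 (0.62), Gsdmc (0.56), which encodes a pore-forming gasdermin, Sprr2a2 (0.55), Alox12e (0.36), Bst2 (0.33), Plac8 (0.32), Isg15 and Tent5a (0.29). For Alox15 the first 5 were Chil4, Sprr2a3 (0.69), Gsdmc (0.61), Sprr2a1 (0.56) and Sprr2a2 (0.47).

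The other genes of the Chil4-high cells were read from summed UMIs. Against all 1410 ZT0 cells without Chil4, 144 of 3112 genes of at least 50 CPM were at least 2-fold higher (4.63%) and 194 at least 2-fold lower (6.23%). A gene entered when either set reached 50 CPM. One far below 50 CPM in the reference could thus enter only by being higher in the Chil4-high cells. The counts were far smaller when the cluster makeup was held equal. With the reference weighted to the same clusters, which kept 45 Chil4-high cells, 28 of 2823 genes were higher (0.992%) and 15 lower (0.531%). Chil4, which chose the cells, is 1 of the 28, and all 28 were also higher against all reference cells. Within cluster 1 and within cluster 4 taken separately, 15 of the 28 were at least 2-fold higher in both, and without the cell richest in Chil4 27 of the 28 remained. Both counts reuse the cells that picked the 28 genes, so they are no independent check, and the share over all genes was not counted. Each comparison is between cells of 1 library and has no replicate check.

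Beside Sprr2a3 (672 against 27.2 CPM in the weighted reference) and Alox15 (620 against 44.1 CPM), the next ratios among genes of at least 50 CPM, Chil4 aside, belonged to Plac8 (139 against 16.2 CPM) and Gsdmc (294 against 48.7 CPM). Gsdmc was found in 41 of the 46 Chil4-high cells, with at most 79 of its 594 UMIs in 1 cell. It was not particular to them, being also in 102 of the 158 cells of clusters 1 and 4 without Chil4 (64.6%), at 67.4 CPM. Of the 12 cells with 10 or more Alox15 UMIs and no Chil4, 10 had Gsdmc, at 139 CPM. Its level over the whole libraries was 34.6 CPM at ZT0 and 29.5 CPM at ZT12, so the libraries differed little in it. Counts of Gsdmc are uncertain to the extent that reads are shared with its near copies. In Plac8 1 cell gave 87 of 281 UMIs. Sprr2a3, Alox15, Gsdmc and Plac8 all reached 50 CPM only in the Chil4-high cells, and for Plac8 being higher was then bound to follow.

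Several of the other higher genes rested on few cells. Of 6 measured genes of the cornifying keratinocyte list, 5 were higher against all cells without Chil4, where 3.48% of all genes were. Against the weighted reference 2 were higher, Sprr3 and Crct1, where 0.916% of all genes were. None of the 6 was lower in either comparison. Sprr1a stood at 288 against 60.4 CPM with 350 of 581 UMIs in 1 cell, Sprr3 at 90.4 against 29.5 CPM with 5 positive cells, and Crct1 at 144 against 57.6 CPM with 8 positive cells. Ada, which encodes the purine enzyme adenosine deaminase, stood at 165 against 51.5 CPM with 135 of 333 UMIs in 1 cell. Clec11a (55.6 against 17.1 CPM) was found in 33 cells and Phlda1 (92.9 against 19.5 CPM) in 20. Both reached 50 CPM only in the Chil4-high cells, where being higher was bound to follow. Of the small proline-rich genes, 5 were measured against all cells without Chil4, with 4 higher and 1, Sprr1b, lower (9.91 against 41.0 CPM). Over all genes 3.48% were higher and 8.06% lower there. Of the 4, Sprr2a3 (5.68 CPM in the cells without Chil4) and Sprr2a1 (0.261 CPM) reached 20 CPM only in the Chil4-high cells. Against the weighted reference Sprr2a1 stood at 21.9 against 1.15 CPM, and it reached 20 CPM only in the Chil4-high cells, where being higher was bound to follow.

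**Figure D5:**
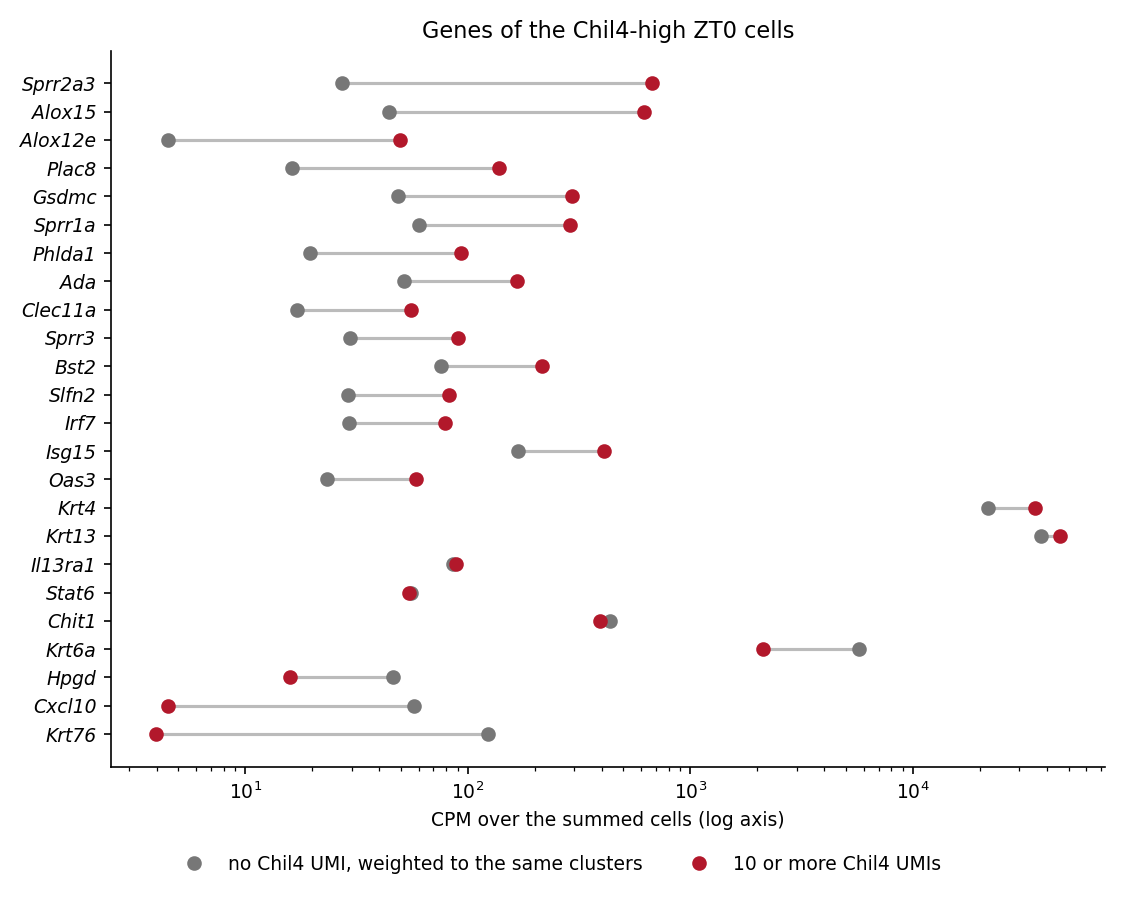
CPM over the summed Chil4-high ZT0 cells (red) and over ZT0 cells without Chil4 weighted to the same clusters (grey), on a logarithmic axis, for 24 genes. The gap is widest for Sprr2a3 at the top and for Cxcl10 and Krt76 at the bottom, while Il13ra1, Stat6 and Chit1 lie almost on top of each other.

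Interferon genes were higher in the Chil4-high cells as a list. Of 25 measured antiviral interferon-stimulated genes (20 CPM or more), 22 were at least 2-fold higher and none lower against all reference cells, where 3.48% of 6180 genes were higher and 8.06% lower. Against the weighted reference 12 of 25 were higher and none lower, where 0.916% of 5675 genes were higher and 0.863% lower. Their median log2 ratio was 1.87 and 0.92 in turn, beside -0.18 and -0.08 for all genes. Any member far below 20 CPM in the reference entered only through the Chil4-high cells, so for it being higher was bound to follow. Isg15 stood at 408 against 169 CPM, Bst2, an antiviral membrane tether, at 216 against 75.4 CPM, the transcription factor gene Irf7 at 79.0 against 29.3 CPM and the RNA sensor Oas3 at 58.6 against 23.2 CPM. Of 16 measured interferon-gamma response genes, 12 were higher and 1 lower against all reference cells (median log2 ratio 1.39), and 3 were higher and 1 lower against the weighted reference (median 0.67). The 1 lower gene was the chemokine Cxcl10, at 4.47 against 57.5 CPM, whose weighted reference came from cluster 1 (125 CPM) far more than from cluster 4 (0.494 CPM).

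Few interleukin-4 and interleukin-13 response genes were measured. Of the list's 32 genes present in the tables, 5 reached 20 CPM, and 26 had no UMI in any Chil4-high cell. Of the 5, 2 were higher and none lower against either reference. Over all genes 3.48% were higher against all cells without Chil4 and 0.916% against the weighted reference. The genes at 0 include Retnla, Arg1, Clca1, Muc5ac, Ccl24, Itln1 and Mrc1. They were also low in the cells without Chil4, with Arg1 the highest at 5.16 CPM and none above 0.687 CPM in the weighted reference, so a count of 0 in 46 cells says little. The 2 higher genes were Sprr2a3 and, reaching 20 CPM only in the Chil4-high cells, Ccl11, the gene of the eosinophil attractant eotaxin. For Ccl11 being higher was then bound to follow. Against all cells without Chil4, where Sprr2a3 stood at 5.68 CPM, the same held for Sprr2a3.

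Ccl11 had 98 UMIs in 8 ZT0 cells and none in the 2620 ZT12 cells. Of these, 97 UMIs lay in 7 Chil4-high cells, with 40, 33, 11, 6, 4, 2 and 1 UMIs, and 1 lay in a cell without Chil4. The cells with 40 and 33 UMIs were those at ranks 3 and 1 by Chil4, and all 7 had 11 or more UMIs of Chil4, 12 or more of Alox15 and 8 or more of Sprr2a3. They lay in 5 clusters and had 53 to 2789 UMIs of Krt13. No Ccl11 was found in the 158 cells of clusters 1 and 4 without Chil4 or in the 12 cells with high Alox15 and no Chil4.

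Of 6 measured genes of type 2 cytokine receptors and signalling, none was 2-fold higher or lower against either reference. Il13ra1 stood at 88.4 against 85.7 CPM and was present in 42 of the 46 Chil4-high cells, and Stat6 at 54.1 against 55.3 CPM in 40 of them. Il4ra was near the limit of detection, at 3.48 against 3.13 CPM with 7 UMIs in 6 cells. Il4 and Il13 themselves had no UMI in Chil4-high cells. Over the whole libraries the Il13ra1 level was 66.1 CPM in the ZT0 and 71.9 CPM in the ZT12 cells.

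Most relatives of the members were within 2-fold of the weighted reference. Of the 10 chitinase family genes 3 were measured, and beside Chil4 and Chil3 this was Chit1, which encodes the active enzyme chitotriosidase and stood at 394 against 433 CPM. Of 10 measured lipoxygenase and arachidonate genes, 2 were higher and 1 lower against the weighted reference, beside 0.916% and 0.863% of all genes. The higher genes were Alox15 and Alox12e (49.7 against 4.47 CPM, in 29 of 46 cells). The lower gene was the prostaglandin-degrading Hpgd (15.9 against 45.9 CPM). Alox12e reached 20 CPM only in the Chil4-high cells, where being higher was bound to follow. Alox12 stood at 55.6 against 47.4 CPM and the barrier lipoxygenase Alox12b at 48.2 against 29.2 CPM.

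Among the lower genes were keratins and genes of other regions of the epithelium. Krt76, a keratin of palate and other suprabasal oral cells, stood at 3.97 against 123 CPM, and Krt6a, a stress-inducible keratin, at 2119 against 5747 CPM. The Krt76 level differed between the clusters with most Chil4-high cells. Over all ZT0 cells it was 201 CPM in cluster 1 and 17.6 CPM in cluster 4. Krt84 and Krt17 were at 1.49 and 18.8 CPM against 186 and 701 CPM in all cells without Chil4, and Krt17 was at 18.9 against 36.7 CPM in the weighted reference. The other genes with the smallest ratios against all cells without Chil4 were Serpine2, Cd74, Nrp2, Pappa, Dcn, Alcam and Apcdd1, each at 21.3 CPM or less in the Chil4-high cells. Each of these, and Krt84, is a leading gene of a cluster without Chil4-high cells (5, 6, 7, 11, 13, 14 or 19). Whether they were lower at equal cluster makeup is not given here. Of 6 measured genes of the stress and alarm list none was higher and 2 were lower against the weighted reference, where 0.863% of all genes were lower. The 1 measured epithelial chemokine, Cxcl14, stood at 27.3 against 22.3 CPM.

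The Chil4-high cells carried the keratins of differentiated mucosal keratinocytes. Krt13 stood at 45638 CPM and Krt4 at 35556 CPM in them, against 16745 and 7463 CPM in all cells without Chil4 and 37620 and 21706 CPM in the weighted reference. Of 10 basal keratinocyte genes 9 were lower against all reference cells, where 8.06% of all genes were. Against the weighted reference 2 of 9 were lower, where 0.863% of all genes were. Genes of other cell types were at or near 0: all 12 of eosinophils, mast cells and basophils, 11 of 12 of lymphocytes, 10 of 12 of neutrophils and 8 of 14 of macrophages and Langerhans cells had no UMI in the 46 cells, among them Lyz2, Adgre1, Cd207, Ly6g and Siglecf. The macrophage list summed to 12.4 CPM in the Chil4-high cells and 12.4 CPM in the weighted reference, and the neutrophil list to 1.99 and 15.7 CPM.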

How the data were processed

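The deposited values are raw UMI counts per gene and cell barcode, for 1 library of tongue epithelial cells at ZT0 and 1 at ZT12. The submitters' processing notes name Cell Ranger 2.1.1 and mm10, while per the file headers the deposited counts were written by Cell Ranger 4.0.0. The counting annotation and the treatment of reads shared by Chil4 and Chil3 are not stated in the sources used here, and 32158 of 32285 gene identifiers were found in GENCODE M21. No correction for free RNA was made here.

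A barcode was kept with at least 500 genes and a mitochondrial share below 10%. Scrublet (scanpy 1.11.5) called 4 ZT0 and 8 ZT12 doublets (0.250% and 0.304%), so low that doublets were in effect not removed. Cells of both libraries were clustered on 2000 variable genes, 30 principal components and 15 neighbours (Leiden resolution 1.0, leidenalg 0.10.2), leaving out the 3 genes, Sprr2a3, both interferon lists, mitochondrial and ribosomal genes. Clusters are given by number. UMIs were summed over cells and scaled to CPM, and ratios use CPM plus 1. The weighted reference uses clusters with at least 10 cells lacking Chil4. For thinned shares, 132 ZT0 and 261 ZT12 cells below the common depth were left out. Cells are not replicates, so the values carry no test. The scripts were tested on simulated data.

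The genes, the lists (9 of responses and 13 of cell type markers) and the rules were chosen with earlier results of these data known. Named genes are the members, Sprr2a3 and Isg15, those with the largest and smallest ratios, those most like Chil4 and Alox15, and list members with the largest ratios. Clec11a, Phlda1 and Sprr1a, named from the weighted comparison, were chosen after their values were seen. Of marker lists whose counts against the weighted reference are not given above, 0 of 11 differentiating mucosal genes were higher and 1 lower. Of 10 proliferation genes 0 changed 2-fold. Of 3 filiform papilla genes 0 did, of 1 glandular gene 0 did and of 1 fibroblast gene 1 was lower. Over all genes 0.916% were higher and 0.863% lower. No taste, melanocyte or lymphocyte gene reached 20 CPM. Alternatives covered the cell filter, doublets, depth, the limit for Chil4-high cells, scaling, minimum CPM, pseudocount and the reference.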

Additional observations from a re-analysis of the deposited data

How the results depend on the processing

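Of 138 alternative values for 21 results, 103 stayed within the counting interval (for counts of genes, within 1.5 times) and 35 moved, and no ratio changed direction. Leaving out the 10 richest cells gave a ratio of ZT0 to ZT12 of 344 for Chil4 and 14.7 for Alox15. For Chil3 the bound was 4.09 without its richest cell and 54.8 with cells averaged. With at least 2 UMIs, Chil4 was in 4.33% of ZT0 cells and Alox15 in 5.65% at ZT0 and 0.725% at ZT12. Thinned to the common depth, the shares were 7.12% for Chil4 and 6.23% and 0.848% for Alox15, and thinned to a lower depth they were 4.73%, 4.21% and 0.432%. Thinning to the common depth gave Isg15 in 81.8% of Chil4-high and 23.6% of Chil4-negative cells, and Alox15 in 3.03% of the latter. Cells with at least 5 or at least 50 Chil4 UMIs held 99.1% and 96.6% of its UMIs. The 10 richest cells held 79.3% with the stricter cell filter, and 78.6% without the 5% highest Scrublet scores. Chil3 in Chil4-negative cells was 0% without those scores, when thinned and in clusters 1 and 4. In clusters 1 and 4, a choice made after seeing the data, the Chil4-negative cells had Alox15 in 24.7%, Sprr2a3 in 12.7% and Isg15 in 69.6%.

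Beside 144 higher and 194 lower genes, weighting gave 28 and 15, or 31 and 20 at Leiden resolution 0.5, with 25 of the 28 shared. With only clusters 1 and 4, added after seeing the data, 26 were higher and 9 lower. With a minimum of 20 CPM 498 were lower, and with no minimum 399 were higher and 2005 lower. Averaging over cells gave 41 higher genes in the weighted comparison, 25 of the 28 among them. No paired analysis was possible because each time has 1 library. The Chil4 values rest on 46 cells of 1 library, possibly of 1 mouse, and a gene without a UMI at ZT12 may still be expressed below detection.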

Other observations

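At ZT12 Chil4 and Alox15 shared 1 cell. Of the 35 ZT12 cells with Alox15, 1 had Chil4 (2.86%), 5 had Sprr2a3 (14.3%) and 13 had Isg15 (37.1%), and they lay in clusters 0, 1, 2, 4, 12 and 16. The ZT12 cell with the most Sprr2a3 held 60 UMIs of it, 6 of Isg15, 1 of Alox15 and 1 of Chil4. Of the 30 ZT12 cells with Sprr2a3, 5 had Alox15.

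Gsdmc2, a paralog next to Gsdmc, was chosen after its values were seen. It had 68 UMIs at ZT0 and 6 at ZT12, and 59 of the 68 lay in 6 Chil4-high cells, 37 of them in 1 cell. Alox12e had its highest count, 47 UMIs, in a ZT0 cell with high Alox15 and no Chil4.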
